A study of Homo sapiens with 12 samples.

Results

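The 10 genes described here encode subunits of the transcription factor NF-kB and products of its best known feedback target genes: NFKB1, NFKB2, RELA, RELB, NFKBIA, NFKBIZ, TNFAIP3, TRAF1, BIRC3 and TNFRSF9. They were chosen by name from the 26485 genes of the annotation after their read counts in these libraries had been seen, so their levels and fold changes are given as a description and carry no test. All 10 were among the 14865 genes that passed the filter on low counts. Cells of the established ovarian cancer line OVCAR8, grown in RPMI medium with serum, were given either vehicle (control), EC359 at 150 nM, trametinib at 100 nM or both drugs together (combination). EC359 is an inhibitor of the leukemia inhibitory factor receptor, and trametinib is an inhibitor of the kinase MEK. Polyadenylated RNA was taken at 7 h and sequenced in 3 libraries per treatment, 12 in all, and the series asks what EC359 adds to trametinib in this cancer type.

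NF-kB is a family of dimeric transcription factors that wait in the cytoplasm, bound to inhibitor proteins of the IkB family. Signals from receptors of the tumor necrosis factor and interleukin families lead to the destruction of the inhibitor, and the freed dimer enters the nucleus and binds DNA at kB sites. Many of the genes it switches on encode its own inhibitors and subunits, so that the response limits and reshapes itself. In epithelial cancers this program is known for inflammatory cytokines and for genes that protect from cell death.

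Matches to the kB motif upstream of the member genes are shown because this is the DNA element that the family binds. The 250 bases upstream of each RefSeq transcription start (GRCh38.p14) were searched on both strands for GGGNNNTTCC, where N is any base. An entry was found for 9 of the 10 members, with 16 starts among them, and RELB had none. The motif was present upstream of 8 starts, which belonged to 7 members: NFKB1, NFKB2, NFKBIA, NFKBIZ, TNFAIP3, BIRC3 and TNFRSF9. No match lay in the windows of RELA or TRAF1. Among the other genes tested that had an entry, 8.87% held the motif, and 5.67% of all 35116 promoters did. A second kB consensus of the same length, GGGRNWYYCC, was also found in 7 members (R is A or G, W is A or T, Y is C or T). Among the other genes tested that had an entry, 8.11% held it. A match is a description of the sequence and was not tested for binding here.

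The sequences below run 5′ to 3′ on the gene's strand, with the motif matches in capitals. The 70 bases of NFKBIA (chr14:35404791-35404860, minus strand) and of BIRC3 (chr11:102317255-102317324, plus strand) lay between genes. Shorter stretches are given where an exon of some transcript covers the site. The coordinates are those of the printed stretches. The NFKB1 stretch (chr4:102501300-102501329, plus strand) held a match in a noncoding exon of the neighbouring AF213884.3. The matches in the stretches of NFKB2 (chr10:102394462-102394491, chr10:102394490-102394519 and chr10:102395674-102395703, plus strand), TNFAIP3 (chr6:137867188-137867217, plus strand) and TNFRSF9 (chr1:7940894-7940922, minus strand) fell in untranslated exons of other transcripts of the same gene in GENCODE 29. The match in the NFKBIZ stretch (chr3:101827757-101827786, plus strand) lay between genes in GENCODE 29 and in an exon of NXPE3 in the annotation that the authors used.
NFKBIA: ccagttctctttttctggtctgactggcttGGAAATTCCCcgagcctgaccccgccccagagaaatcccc
BIRC3: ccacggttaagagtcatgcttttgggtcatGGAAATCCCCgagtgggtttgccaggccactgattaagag
NFKB1: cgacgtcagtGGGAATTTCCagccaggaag
NFKB2, start 2, distal match: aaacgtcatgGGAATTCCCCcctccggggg
NFKB2, start 2, proximal match: gggccgagaaGGGGCTTTCCcggccctgag
NFKB2, start 3: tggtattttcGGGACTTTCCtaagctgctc
NFKBIZ: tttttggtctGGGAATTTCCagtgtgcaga
TNFAIP3: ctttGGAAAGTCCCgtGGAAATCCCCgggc
TNFRSF9: agctgtggtGGGAATTTCCCatgagaccc

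**Figure D1:**
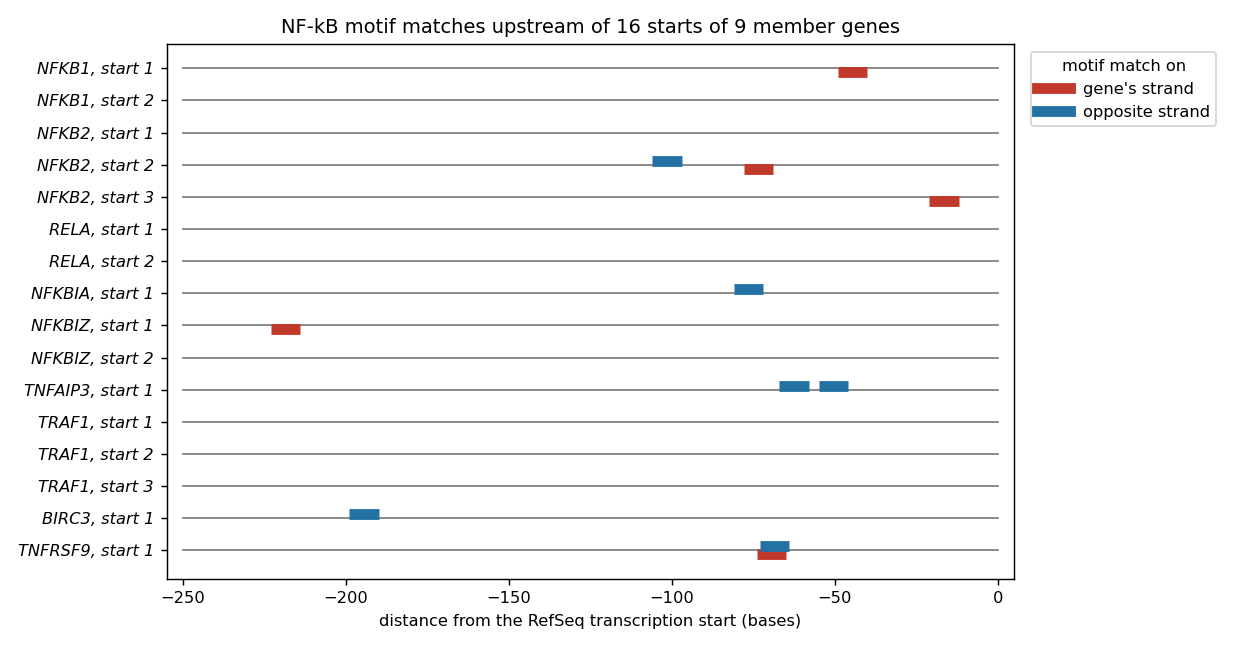
Positions of the 11 motif matches in the 250 bases upstream of the 16 RefSeq starts of 9 member genes, in bases from the start, with bars coloured by the strand of the match. The matches lie between positions -223 and -12, TNFAIP3 holds a pair of neighbouring matches, and the windows of RELA and TRAF1 are empty.

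The libraries held between 24790392 and 32467283 reads counted on genes, at which a count of 0 allows at most 3 counts, or 0.0924 to 0.121 CPM (counts after TMM scaling to an equal depth). Within treatments the biological coefficient of variation was 3.95%. Nothing in the labels says whether the 3 libraries of a treatment came from separate cultures, so the spread between them may be technical. A gene was called changed when edgeR's quasi-likelihood test over all genes gave an adjusted p-value under 0.05 and a change of at least 2-fold. The summed level of 5 genes that report MEK and ERK activity (DUSP6, SPRY4, SPRED1, ETV4 and ETV5) ranged from 220.3 to 229.8 CPM among control libraries, from 331.5 to 340.8 CPM among EC359 libraries, from 39.8 to 41.1 CPM among trametinib libraries and from 53.4 to 56.3 CPM among combination libraries. Of 9 markers of epithelial and ovarian carcinoma cells, 6 averaged at least 1 CPM, while KRT19 and MUC16 were at or near 0. Of 12 leukocyte markers, PTPRC, CD3E, CD2, MS4A1 and CD53 were at or near 0, while 3 averaged at least 1 CPM (CD68, ITGAM and CORO1A). The leukocyte sum of 53.4 to 64.9 CPM came mostly from CD68, at 47.9 to 60.6 CPM. Of 6 fibroblast markers, COL1A1 and PDGFRB were detected and DCN was at or near 0. Their sum was 429.3 to 449.5 CPM in control and 235.3 to 248.5 CPM with EC359, while trametinib libraries had 538.2 to 545.7 CPM and combination libraries 341.5 to 360.8 CPM. The 4 endothelial markers summed to at most 1.24 CPM. The part of these markers in the results was not tested. The cultures were of the cell line OVCAR8, so the marker sums do not count leukocytes, fibroblasts or endothelial cells. In such bulk RNA, fewer expressing cells and less RNA per cell cannot be told apart.

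Compared to control, every member was higher with EC359, by a log2 difference between 0.73 (RELA) and 3.40 (TNFAIP3). With trametinib alone only TNFRSF9 differed by at least 2-fold. In the combination 9 members were higher than control and BIRC3 was lower. Set against EC359 alone, 9 members were lower in the combination, TRAF1 and BIRC3 by more than 2-fold, and TNFRSF9 was higher. With EC359 and in the combination, NFKBIA, NFKBIZ and TNFAIP3 differed most from control.

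**Figure D2:**
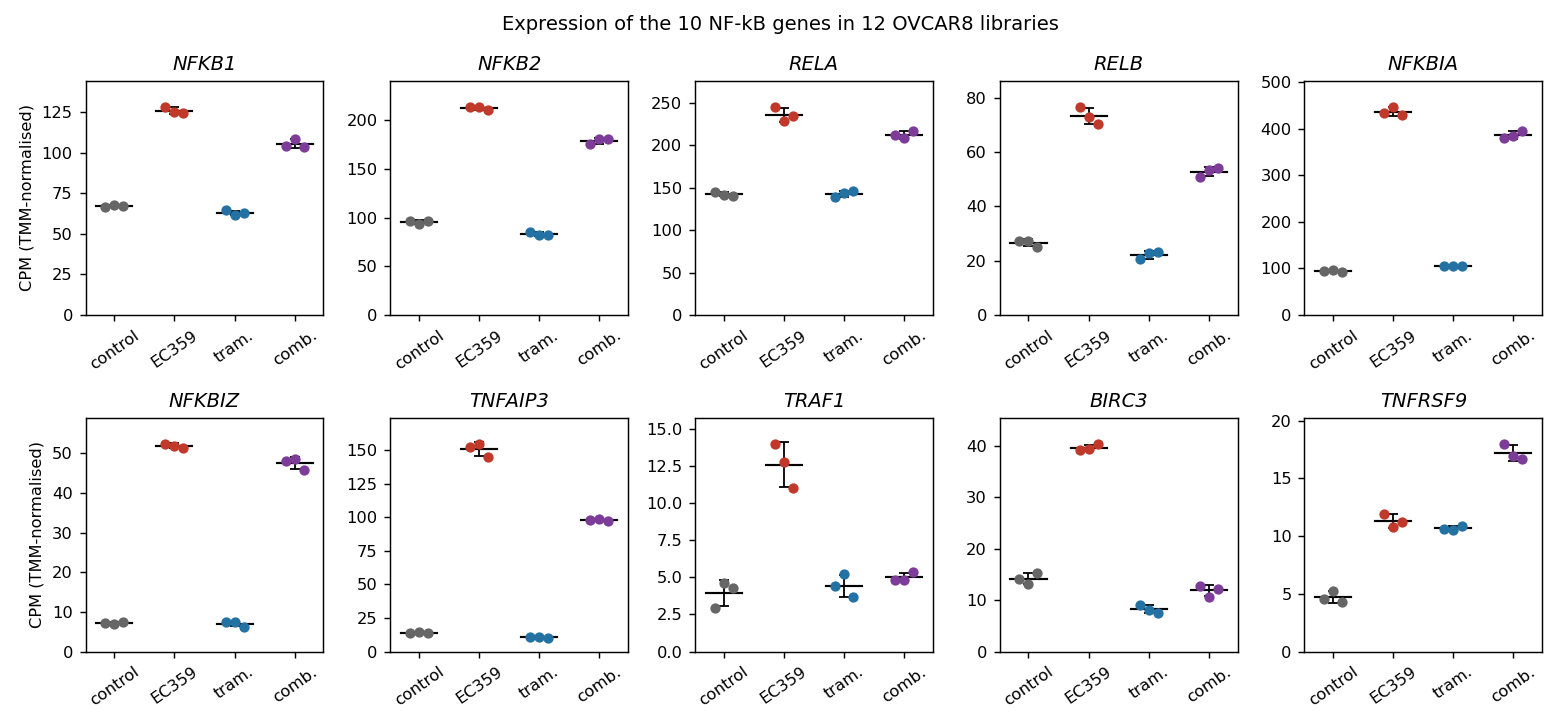
Expression of the 10 members in CPM, with a point for each of the 3 libraries of control, EC359, trametinib (tram.) and combination (comb.), a line for the mean and a bar for the SD. EC359 libraries lie above control for all 10 members and combination libraries for 9, by little in TRAF1, while in BIRC3 the combination lies below control.

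The Rel subunits are the DNA-binding proteins of the pathway. NFKB1, on chromosome 4 from 102501329 to 102617302 (hg38, plus strand), encodes a precursor that is processed into the DNA-binding partner of RELA. Its level was 66.7, 68.0 and 67.2 CPM in the 3 control libraries and 128.2, 125.2 and 124.6 CPM with EC359. It was 64.4, 61.5 and 63.0 CPM with trametinib and 104.2, 108.7 and 103.5 CPM in the combination. No pair of treatments overlapped, and the order was EC359, combination, control, trametinib. The log2 difference from control was 0.90 (SE 0.03) with EC359, -0.09 (SE 0.03) with trametinib and 0.65 (SE 0.03) in the combination.

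NFKB2, on chromosome 10 from 102394110 to 102402529 (plus strand), encodes the precursor of the noncanonical arm of the pathway. Control libraries held 96.8, 93.5 and 96.5 CPM of it, and EC359 libraries 213.4, 213.5 and 210.7 CPM. Trametinib libraries held 85.4, 81.9 and 82.4 CPM, and combination libraries 175.4, 180.7 and 180.8 CPM. The 4 treatments stood apart in the same order as for NFKB1. NFKB2 differed from control by a log2 value of 1.15 (SE 0.03) with EC359, -0.20 (SE 0.03) with trametinib and 0.91 (SE 0.03) in the combination.

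RELA, on chromosome 11 from 65653596 to 65662972 (minus strand), encodes the main activating subunit. It was the most highly expressed Rel member per unit of transcript length in all 4 treatments. Its control libraries read 145.1, 141.8 and 140.6 CPM and its EC359 libraries 245.2, 228.8 and 234.4 CPM. With trametinib it read 138.6, 143.8 and 146.1 CPM, and in the combination 212.3, 208.1 and 216.7 CPM. Trametinib and control overlapped, and both lay below the other treatments. The log2 differences from control were 0.73 (SE 0.03) with EC359, 0.00 (SE 0.03) with trametinib and 0.58 (SE 0.03) in the combination, the smallest EC359 difference of the 10 members.

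RELB, on chromosome 19 from 45001449 to 45038198 (plus strand), is the subunit that pairs with the NFKB2 product and is itself a target of the canonical arm. Control libraries had 27.3, 27.3 and 25.1 CPM and EC359 libraries 76.5, 72.8 and 70.4 CPM. Trametinib libraries had 20.5, 22.7 and 23.0 CPM and combination libraries 50.8, 53.4 and 54.1 CPM. All 4 treatments stood apart, with EC359 the highest and trametinib the lowest. In the combination RELB was 1.99-fold above control, just short of the 2-fold limit, and it passed that limit in 3 of 19 alternative analyses, those without control replicate 1, control replicate 2 or combination replicate 1. With EC359 it was 2.76-fold above control, the largest fold of the 4 subunits.

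NFKBIA, on chromosome 14 from 35401510 to 35404754 (minus strand), encodes the inhibitor that holds RELA dimers in the cytoplasm. It was the member with the highest level per transcript length in every treatment. It stood at 93.8, 97.1 and 92.5 CPM in control and at 435.0, 446.9 and 429.0 CPM with EC359. With trametinib it stood at 104.6, 106.1 and 105.4 CPM, and in the combination at 379.6, 385.6 and 395.5 CPM. The treatments did not overlap, and unlike the subunits NFKBIA was slightly higher with trametinib than in control. EC359 differed from control by 4.63-fold, trametinib by a log2 value of 0.16 (SE 0.03) and the combination by 4.10-fold.

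NFKBIZ, on chromosome 3 from 101827990 to 101861025 (plus strand), encodes a nuclear IkB protein that acts together with NFKB1 dimers on secondary response genes. It was low in control, at 7.14, 6.94 and 7.48 CPM, and in the trametinib libraries, at 7.49, 7.52 and 6.23 CPM. EC359 libraries held 52.4, 51.9 and 51.2 CPM and combination libraries 48.1, 48.6 and 45.8 CPM. Control and trametinib overlapped, and EC359 and combination lay apart from them and from each other. The fold over control was 7.21 with EC359 and 6.60 in the combination. An exon of NXPE3 overlaps NFKBIZ on the same strand, but the deposited counts of NFKBIZ were whole numbers in all 12 libraries. Counts that were not whole, and so held split reads, were most frequent for NFKBIA (10 libraries), NFKB2 (8) and TNFAIP3 (6).

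TNFAIP3, on chromosome 6 from 137867188 to 137883314 (plus strand), encodes a ubiquitin-editing enzyme that shuts off signaling upstream of the IkB kinase. Its control libraries held 13.7, 14.8 and 14.1 CPM and its EC359 libraries 152.5, 154.6 and 144.5 CPM. It was at 10.8, 10.8 and 10.3 CPM with trametinib and at 97.9, 98.5 and 96.9 CPM in the combination. No treatments overlapped, and EC359 was 10.6-fold above control, the largest fold of any member. Trametinib was lower than control by a log2 difference of -0.42 (SE 0.06), and the combination was lower than EC359 by -0.62 (SE 0.03).

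TRAF1, on chromosome 9 from 120902393 to 120929173 (minus strand), encodes an adaptor that joins TRAF2 and the cellular inhibitors of apoptosis at receptors of the tumor necrosis factor family. It was a low gene, with 83 to 381 counts per library. Control libraries held 2.96, 4.60 and 4.27 CPM, trametinib libraries 4.43, 5.20 and 3.70 CPM and combination libraries 4.83, 4.84 and 5.34 CPM. EC359 libraries held 14, 12.8 and 11 CPM and lay far above the rest. Trametinib overlapped with control and with the combination, and the combination lay just above control. EC359 was 3.18-fold above control, and the combination was 2.52-fold below EC359.

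BIRC3, on chromosome 11 from 102317450 to 102339403 (plus strand), encodes a ubiquitin ligase that protects from death signaling and restrains the noncanonical arm. Its levels were 14.2, 13.1 and 15.3 CPM in control, 39.2, 39.3 and 40.4 CPM with EC359 and 9.11, 8.01 and 7.56 CPM with trametinib. In the combination they were 12.7, 10.7 and 12.2 CPM. All treatments stood apart, in the order EC359, control, combination, trametinib. BIRC3 was the member with the lowest trametinib value relative to control, at a log2 difference of -0.78 (SE 0.08). The combination was lower than EC359 by 3.33-fold and lower than control by a log2 difference of -0.26 (SE 0.07).

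TNFRSF9, on chromosome 1 from 7915871 to 7943165 (minus strand), encodes a costimulatory receptor that signals through TRAF proteins to NF-kB. It too was low, with 128 to 453 counts per library. It read 4.57, 5.26 and 4.33 CPM in control, 11.9, 10.8 and 11.2 CPM with EC359 and 10.6, 10.5 and 10.9 CPM with trametinib. The combination libraries, at 18.0, 16.9 and 16.7 CPM, were the highest. EC359 and trametinib overlapped, and both lay above control. Each drug alone thus differed from control by a similar amount, 2.39-fold with EC359 and 2.26-fold with trametinib, and the combination by 3.64-fold.

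**Figure D3:**
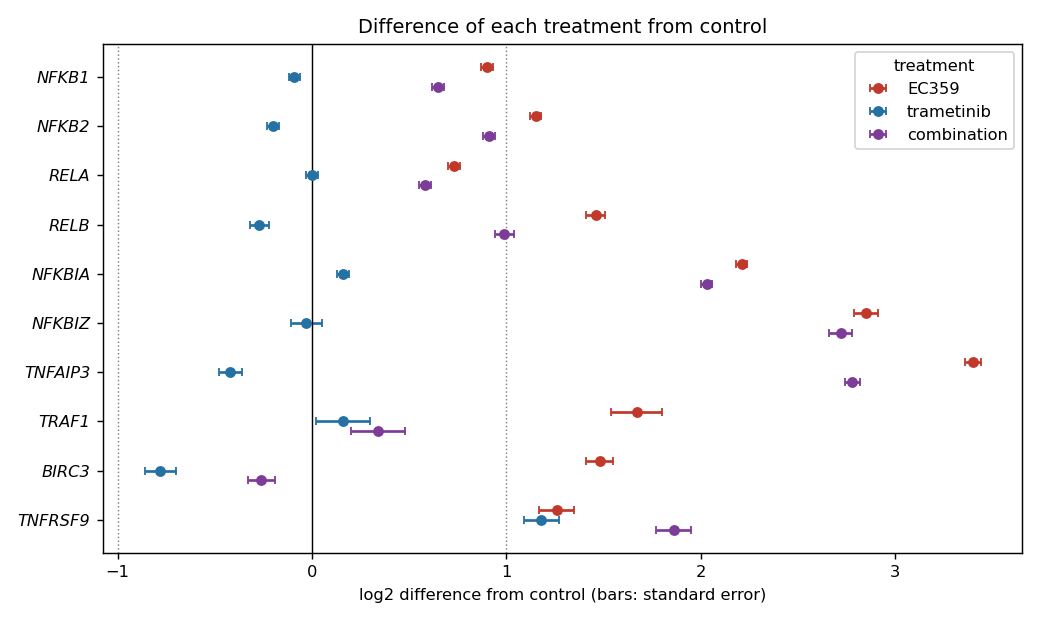
Log2 difference of EC359, trametinib and combination from control for each member, as points with bars for the standard error and dotted lines at a 2-fold difference. EC359 points run from 0.73 (RELA) to 3.40 (TNFAIP3), trametinib points lie near 0 apart from BIRC3 (-0.78) and TNFRSF9 (1.18), and combination points lie between those of the single drugs for 9 of 10 members.

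By the thresholds used for all genes, 8 members were called higher with EC359 compared to control (all but NFKB1 and RELA), in an experiment where 6.98% of all genes were called and 4.19% were called higher. TNFRSF9 was the only member called with trametinib, where 1.43% of genes were called and 0.478% were called higher. In the combination 4 members were called higher than control (NFKBIA, NFKBIZ, TNFAIP3 and TNFRSF9), against 13.1% of genes called and 7.27% called higher. Of the members, TRAF1 and BIRC3 were called lower in the combination than with EC359, a comparison with 3.24% of genes called and 1.55% called lower. Compared to trametinib, 5 members were called higher in the combination (NFKB2, RELB, NFKBIA, NFKBIZ and TNFAIP3), against 11.6% called and 6.12% called higher. The median log2 difference from control over the 10 members was 1.47 with EC359, -0.06 with trametinib and 0.95 in the combination, while the median over all genes was -0.01, 0.00 and -0.01. The comparisons with control share the control libraries, and those of the combination share the combination libraries. The members were selected on the same counts, so nothing is read from the number called.

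The members fell into different positions when the combination was set between control and EC359. The combination kept 90.3% (SE 2.04) of the EC359 increment over control, in CPM, for NFKBIZ and 85.4% (SE 1.89) for NFKBIA. The subunits kept less, with 74.6% (SE 4.70) for RELA, 71.3% (SE 1.64) for NFKB2, 65.0% (SE 3.04) for NFKB1 and 56.1% (SE 3.09) for RELB, and TNFAIP3 kept 61.3% (SE 1.42). TRAF1 kept 12.2% (SE 5.55). BIRC3 kept none, at -9.03% (SE 3.67). TNFRSF9 exceeded its EC359 level, at 189.6% (SE 11.9) of the increment.

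**Figure D4:**
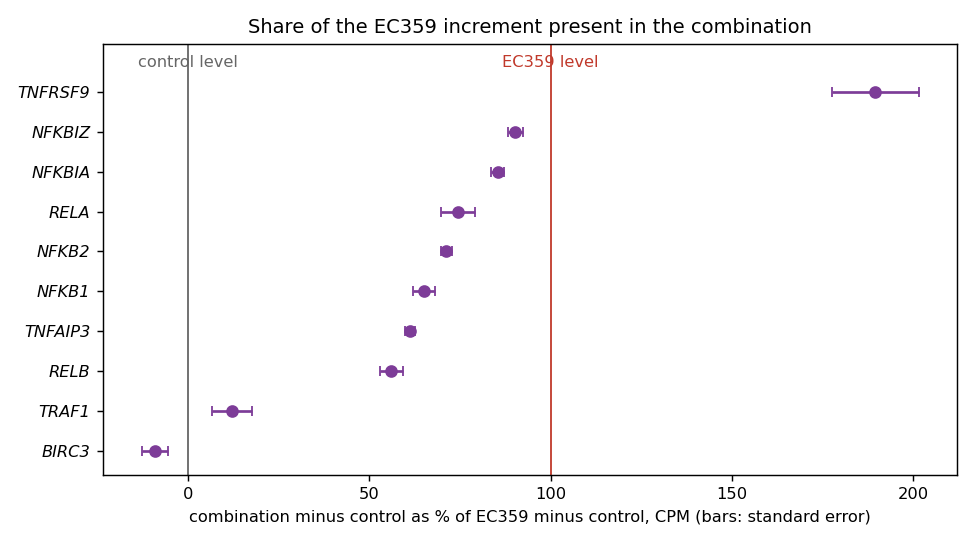
Combination minus control as a percent of EC359 minus control for each member, on the CPM scale, with bars for the standard error and lines at the control level (0) and the EC359 level (100). BIRC3 and TRAF1 sit at -9.03% and 12.2%, and TNFRSF9 lies at 189.6%. The Rel subunits, NFKBIA, NFKBIZ and TNFAIP3 lie between 56.1% and 90.3%.

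The combination was also set against the product of the folds of the single drugs, the level at which their log2 effects would add up. All 10 members were below that product. TRAF1 was at 5.0 CPM where the product gave 14.2 CPM, a log2 difference of -1.49 (SE 0.19). BIRC3 was at 11.9 CPM against 23.0 CPM, a difference of -0.95 (SE 0.10), and TNFRSF9 at 17.2 CPM against 25.6 CPM, a difference of -0.57 (SE 0.12). For NFKB2 and NFKBIZ the shortfall was -0.05 (SE 0.04) and -0.10 (SE 0.09), close to the standard error. This interaction had an adjusted p-value under 0.05 for 8 members, all lower, and for 30.3% of all genes. The share of all genes called lower was 15.9%. The members were chosen by their values, so these calls are a description and nothing is read from their number. RELB passed in 13 of 18 alternative analyses and lost the call without control replicate 3, EC359 replicate 1, trametinib replicate 2, trametinib replicate 3 or combination replicate 1, with a log2 value of -0.17 to -0.19 in these. TNFAIP3 passed in 16 of 18 and lost it without control replicate 1 or trametinib replicate 1 (-0.19 in both).

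Levels of different genes were compared only per kilobase of exon (RPKM). In control NFKBIA (60.3 ± 1.52 RPKM, SD, n = 3) and RELA (55.3 ± 0.913) were the most abundant, followed by NFKB2 (24.6 ± 0.472), NFKB1 (16.5 ± 0.162) and RELB (11.7 ± 0.565). TNFAIP3, BIRC3 and NFKBIZ had 3.0, 2.05 and 1.71 RPKM. TRAF1 and TNFRSF9, at 0.862 and 0.788 RPKM, overlapped. With EC359 the order at the top was the same, but NFKBIA reached 278.9 ± 5.82 RPKM against 91.6 ± 3.25 for RELA. TNFAIP3 stood at 31.8 ± 1.12 RPKM, where its libraries overlapped with those of RELB (32.2 ± 1.35) and NFKB1 (30.8 ± 0.473). In the combination TNFAIP3 stood at 20.6 ± 0.174 RPKM, below NFKB1 and RELB, and TNFRSF9 (2.87 ± 0.113) stood above BIRC3 (1.72 ± 0.150).

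Ratios between members within a library show which partners changed unequally, for a few pairs that were picked from all the possible ones. The ratio of the inhibitor NFKBIA to RELA was 1.06, 1.13 and 1.08 in control and 2.92, 3.21 and 3.01 with EC359. It was 1.24, 1.21 and 1.19 with trametinib and 2.94, 3.05 and 3.0 in the combination, so that the libraries with EC359, alone or combined, overlapped with each other and lay apart from those without it. The ratio of RELB to RELA averaged 0.211 in control, 0.352 with EC359, 0.175 with trametinib and 0.282 in the combination, with all treatments apart. NFKB2 over NFKB1 averaged 1.49, 1.77, 1.39 and 1.78 in the same order. BIRC3 over TNFAIP3, the ratio of a survival gene to a brake, moved most among the pairs picked. This pair sets the member lowest in the combination relative to control (log2 -0.26) over the highest (2.78). The ratio went from 0.686 ± 0.0741 in control to 0.181 ± 0.00927 with EC359, 0.529 ± 0.0417 with trametinib and 0.0834 ± 0.00771 in the combination (SD, n = 3 each).

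For each member that differed at least 2-fold from control in some treatment, the genes with the nearest set of 3 log2 differences from control were found among 13602 genes of at least 1 CPM, by root mean square difference. TNFAIP3 was nearest to KDM6B (0.187), a histone demethylase, then to SLC2A3 and PTGS2. For NFKBIZ these were KLF9 (0.144), PPP1R15A and KLF2, and for NFKBIA they were VEGFA (0.119), TRIML2 and CLK1. TRAF1 lay nearest to BHLHE40 (0.218), a transcriptional repressor, followed by DDAH2 and SOWAHC. BIRC3 lay nearest to ERN1 (0.239), a sensor of protein folding stress, followed by GPAT3 and the adhesion gene ICAM1. RELB was nearest to BACH2 (0.054), CHIC2 and PLEKHF1, and NFKB2 to MB21D1 (0.076), with RNF19B also among the nearest. TNFRSF9 was nearest to EPHA1-AS1 (0.083), GDPD3 and GOLGA6L4, and counts of the last are uncertain because it belongs to a family of near-identical copies.

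Other regulators of NF-kB were taken from a list of 64 genes, of which 52 were tested. This list was chosen with earlier results of these data known, so its shares are no independent evidence. By edgeR's quasi-likelihood test, 7 rose and 1 fell with EC359 compared to control, or 15.4% of those tested against 6.98% of all genes, with a median log2 difference of 0.22. ZC3H12A, an RNase that degrades inflammatory transcripts, rose from 5.57 ± 0.102 to 51.3 ± 1.38 CPM (SD, n = 3; log2 3.20, adjusted p = 1.6e-43). IRAK2, a kinase of interleukin receptor signaling, rose from 5.39 to 27.6 CPM (adjusted p = 1.5e-31). REL, the remaining activating subunit of the family, rose from 8.82 to 25.6 CPM (adjusted p = 1.9e-27). TNFSF9, the ligand of TNFRSF9, rose from 26.4 ± 2.49 to 117.5 ± 2.27 CPM (adjusted p = 9.5e-42). NFKBID, TNIP1 and BCL3 also rose, and TLR3, which averaged under 1 CPM in both groups, fell. The TLR3 call was lost when control replicate 1, control replicate 2 or EC359 replicate 3 was left out, with log2 differences between -2.30 and -1.16 over all alternatives.

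With trametinib alone, IL1B, a ligand that activates the pathway, was the only regulator called, and it fell from 4.0 ± 0.674 to 1.75 ± 0.227 CPM (log2 -1.19, adjusted p = 4.1e-07). In the combination 6 regulators rose and 3 fell compared to control, or 17.3% of those tested, near the 13.1% of all genes. ZC3H12A, TNFSF9, REL and NFKBID rose by log2 differences of 3.0, 2.16, 1.86 and 1.55, and IL1RAP and CYLD rose as well. IL1B fell by 2.18 and TNFRSF1A, the main receptor for tumor necrosis factor, fell by 1.03 on the log2 scale (adjusted p = 8.5e-37). TLR3 fell too, again at under 1 CPM in both groups. TNFSF9 had 118.0 ± 4.19 CPM in the combination, and the test against EC359 alone gave an adjusted p = 0.91. Its receptor TNFRSF9, by contrast, was 1.52-fold higher in the combination than with EC359. Compared to EC359, 4 regulators fell and none rose (7.69% of those tested, against 3.24% of all genes): IL1B, IRAK2, NFKBIE and TNFRSF11A, which were named after their values were seen. NFKBIE, an inhibitor of the IkB family, had 35 CPM with EC359 and 15.9 CPM in the combination (adjusted p = 1.8e-22). The TNFRSF11A call, at 1.36 against 0.670 CPM, was lost without EC359 replicate 1, combination replicate 1 or combination replicate 3, at log2 differences from -1.48 to -0.78 over the alternatives. Compared to trametinib alone, 6 regulators rose and 1 fell in the combination, or 13.5% against 11.6% of all genes.

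BIRC2 and TRAF2, the close relative of BIRC3 and the binding partner of TRAF1, were looked at outside the rule for named genes. BIRC2 was at 117.4 ± 2.26 CPM (SD, n = 3) in control and at 173.8 ± 4.52 CPM with EC359, and at 90.8 ± 2.78 CPM with trametinib and 118.7 ± 2.58 CPM in the combination. Its order was the same as that of BIRC3 except that control and combination lay close, with an adjusted p = 0.68 for their difference. TRAF2 had 81.3, 105.1, 78.2 and 89.9 CPM in the same order of treatments. Neither reached a 2-fold difference in a comparison with control.

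Target genes that are not members were taken from a list of 43, of which 37 were tested. They too were chosen with earlier results of these data known, so the shares below are a description. With EC359, 17 rose and none fell, or 45.9% of those tested against 6.98% of all genes, with a median log2 difference of 0.89. Of 10 chemokines and cytokines tested, 8 rose, among them CXCL8, a neutrophil attractant, from 3.61 ± 0.254 to 286.4 ± 13.1 CPM (SD, n = 3; log2 6.31, adjusted p = 1.1e-63, edgeR). CXCL2, CXCL3 and CXCL1, which bind the same receptor, rose by log2 differences of 5.59, 5.15 and 4.36. Of 9 survival and stress genes, 3 rose (IER3, PIM3 and SOD2). With trametinib alone 7 targets fell and none rose (18.9%, against 1.43% of all genes). They were PTX3 (log2 -2.35), IER3 (-1.87), CCL20 (-1.58), BCL2A1 (-1.48), PLAU (-1.46), CXCL8 (-1.39) and CXCL1 (-1.17). IER3 averaged under 1 CPM in both groups, and its call was lost without trametinib replicate 1 or trametinib replicate 3. CXCL8 was at 1.37 ± 0.165 CPM with trametinib and CXCL1 at 2.75 ± 0.645 CPM.

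In the combination 13 targets rose and 3 fell compared to control, or 43.2% against 13.1% of all genes. CXCL8, CXCL2 and CXCL3 rose by log2 differences of 4.86, 4.35 and 3.77, and KLF6, a zinc finger factor, rose by 2.50, from 262.1 ± 5.50 to 1478.3 ± 26.2 CPM. BCL2A1, BCL2L1 and PLAU fell, with log2 differences of -1.61, -1.56 and -1.25. The first 2 of these inhibit apoptosis, and PLAU is a secreted protease. Set against EC359 alone, 11 targets fell and none rose (29.7%, against 3.24% of all genes), with a median log2 difference of -0.48. CCL20 fell from 9.29 ± 1.06 to 1.73 ± 0.279 CPM (adjusted p = 7e-19) and CXCL1 from 128.3 ± 2.05 to 26.3 ± 1.32 CPM (adjusted p = 6.9e-40). CXCL2 and CXCL8 fell by less, to 123.5 and 105.3 CPM, and the test for KLF6 gave an adjusted p = 0.15 at 1518.3 CPM with EC359. Compared to trametinib, 15 targets rose in the combination and none fell, or 40.5% against 11.6% of all genes. The interaction was called for 22 of the 37 targets (59.5%) and 22 of the 52 regulators (42.3%), against 30.3% of all genes. Of these targets 4 were above and 18 below the level given by the product of the folds of the single drugs, and of the regulators 5 were above and 17 below, where 15.9% of all genes were called below it.

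**Figure D5:**
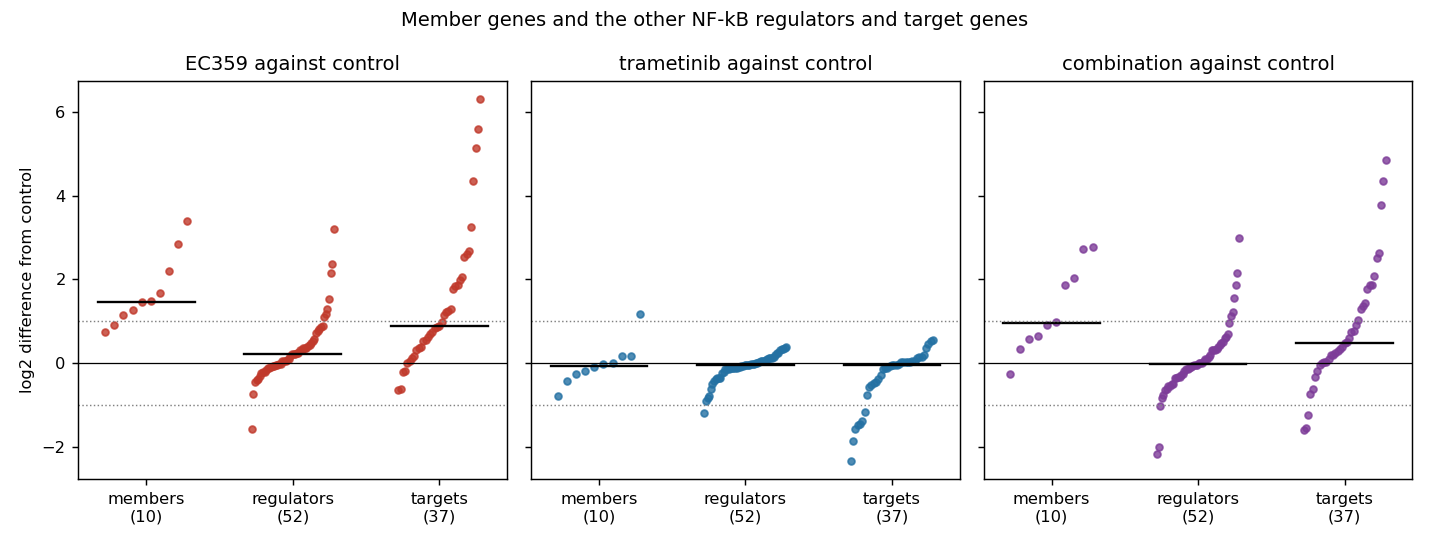
Log2 differences from control of the 10 members, 52 other regulators and 37 other target genes with EC359, trametinib and the combination, as a point for each gene in ascending order, with a line at the median and dotted lines at a 2-fold difference. The medians with EC359 are 1.47, 0.22 and 0.89, and the highest target is CXCL8 at 6.31.

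The motif was also counted in these lists. It was found upstream of 11 of 29 tested targets with an entry (37.9%) and of 6 of 45 regulators (13.3%). Of the genes called higher with EC359 that had an entry, members left out, 9.14% held it, beside 8.87% of the genes tested, and of those called lower 5.33% did. The second consensus gave 8.64% and 5.33% for these sets, beside 8.11%, and 44.8% for the targets. The motifs differed for the 94 genes with an entry called lower with trametinib, at 8.51% and 18.1%. Those called higher with trametinib had 7.89% for either. These shares were not tested.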

How the data were processed

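Stranded polyadenylated RNA libraries of OVCAR8 cells were read in pairs. Per the file headers, the authors counted reads on exons by gene with featureCounts 1.5.0-p1 (minimum mapping quality 2, strand setting 2) against hg38 gene models, splitting a read that had several placements or overlapped several genes into fractions. The submitters' processing notes also name HISAT2. So the deposited numbers are estimated counts that have not been normalized, and they were rounded to whole numbers here (12.4% to 15.1% of genes per library were not whole). In R 4.3.3, edgeR 4.0.16 filtered low genes (filterByExpr, minimum count 10), computed TMM factors (0.947 to 1.06) and fitted a robust quasi-likelihood model to all 12 libraries, with Benjamini-Hochberg adjustment over 14865 genes. The thresholds were an adjusted p-value under 0.05 and a 2-fold change, without a minimum fold for the interaction. The test was checked on simulated data.

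The members and lists were chosen with earlier results of these data known, so counts over them are no independent evidence. Named genes were all members, up to 4 called genes each way per list and comparison with control (at least 1 CPM), and the 3 nearest genes of each member that differed 2-fold, of which 1 is not reported here. Promoters were from RefSeq. Alternatives were DESeq2 1.42.0, its size factors, total counts only, no filter, the replicate number as a block, a fit to the 2 groups at hand, each library left out, 10 counts required in every library, no minimum fold change and a second motif. Blots, cell assays and animal experiments were not analysed here.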

Additional observations from a re-analysis of the deposited data

Results flagged for a closer look

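In 4 of the tested regulators and targets that are not members the effect of EC359 differed with and without trametinib by a test of that difference (edgeR's quasi-likelihood interaction term with Benjamini-Hochberg adjustment) and by at least 2-fold. For CXCL3 the EC359 effect was smaller with trametinib by a log2 difference of -1.89 (SE 0.22, adjusted p = 3.6e-10), and its mean level was 0.637 CPM for control, 22.9 for EC359, 0.915 for trametinib and 8.81 for the combination. For BHLHE40, a transcriptional repressor, it was smaller by -1.51 (SE 0.04, adjusted p = 2.6e-36), with 100.9 CPM in control and 398.3 CPM with EC359, against 102.5 CPM with trametinib and 142.4 CPM in the combination. For CXCL1 the difference was -1.12 (SE 0.13, adjusted p = 4e-10). For BCL3, a nuclear IkB protein, it was -1.02 (SE 0.10, adjusted p = 1.9e-12), from 12.8 CPM in control to 27.6 with EC359, against 16.1 with trametinib and 17.1 in the combination. BCL3 was named outside the rule for named genes. The lists were chosen with earlier results of these data known, so nothing is read from the number of such genes. The share of all genes that met both conditions was not computed, and without a minimum fold the interaction was called for 30.3% of all genes.

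NFKBIA was higher with trametinib than in control in every library and lower in the combination than with EC359 in every library, an interaction of -0.33 on the log2 scale. NFKBIA belongs to the members chosen by their values, so this interaction and its call above are given as a description, and no test is read from them.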

How the results depend on the processing

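Over 18 counts of called genes, each under 18 or 20 alternatives, 337 of 354 values stayed within 1.5 times the count given, and of 1130 member log2 differences 1093 moved by less than the spread between libraries, 37 moved by more and none of a called value reversed. Requiring 10 counts in every library left 134 genes called with trametinib and 263 for the combination against EC359. Without a minimum fold change, 9077 genes (EC359), 4197 (trametinib), 10353 (combination), 7319 (combination against EC359) and 10136 (combination against trametinib) were called. In the same order the regulators gave 40, 27, 41, 41 and 43, and the targets 30, 22, 29, 28 and 31. With total counts only, the median of all genes shifted by -0.15 with EC359, -0.14 in the combination and -0.16 for the combination against trametinib, and NFKB2 in the last comparison (0.94), CYLD, LIF and BCL3 were no longer called. The trametinib differences of RELA and NFKBIZ changed sign in some alternatives, and that of TRAF1 came to 0 in 1. Libraries with the same replicate number did not deviate together (r from -0.19 to 0.27 over 18 pairs, against -0.24 to 0.29 over 36 others), so the numbers were not taken as pairs. With the replicate block 1035 genes were called with EC359, 209 with trametinib and 1943 in the combination, and the pathway lists gave 8 and 17 with EC359. Leaving out a library gave 1024 to 1070 genes with EC359 and 1970 to 2009 in the combination. TRAF1 and TNFRSF9, with at most 453 counts, had the largest standard errors of the members.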

Other observations

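Several genes of the lists that failed the filter on low counts are ligands of the pathway or its classical cytokine products, and these were picked out after their values were seen. CSF2, a growth factor for myeloid cells and a known NF-kB target, had 15, 23 and 9 counts in the 3 EC359 libraries and 0 counts in each of the other 9 libraries, where a count of 0 allows up to 3 counts. TNF, the prototypic ligand, had 2 counts in all over the 3 control libraries, 27 with EC359, 7 with trametinib and 28 in the combination. No more than 12 TNF counts were found in any library. LTA, LTB, TNFSF11, TNFSF15 and CD40LG, which encode other ligands, had 0 counts in all 12 libraries, as did the receptor TLR4 and the targets CCL2 and SELE.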
